A study of Mus musculus with 9 samples.

Results

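Metabotropic glutamate receptors are G protein-coupled receptors that sense glutamate and adjust synaptic strength slowly, beside the fast ion-channel receptors. The 6 family genes described here, Grm2, Grm3, Grm4, Grm5, Grm7 and Grm8, were taken by name from 22180 genes measured in the anterior cingulate cortex of mice, as the probe sets whose only annotated gene symbol was one of these. They were measured by 7 probe sets, 1 for each gene except Grm7, for which the brighter on average was used. RNA from 9 C57BL/6J mice, an inbred laboratory strain, was hybridised to 9 Affymetrix arrays, 3 per group, and every mouse was killed at ZT13, that is 13 h after the start of the light phase. Control mice were given an intraperitoneal saline injection at ZT5, and ketamine mice (KT) an intraperitoneal injection of 3 mg/kg ketamine at ZT5. Sleep-deprived mice (SD) spent ZT0 to ZT12 awake in a circular cage with a slowly turning bar, and the labels give them no injection, so that wakefulness, cage, the absence of an injection and the last 1 h before tissue was taken cannot be told apart in that group. The labels give neither age nor sex, and call the replicates biological.

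The family is divided by sequence and signalling into 3 groups. Group I, here Grm5, couples to Gq and raises calcium in the postsynaptic cell, where Homer proteins tie the receptor to the synaptic scaffold. Group II, Grm2 and Grm3, and group III, Grm4, Grm7 and Grm8, couple to Gi/o, lower cyclic AMP and mostly restrain transmitter release at the terminal. Grm3 is also made by astrocytes and Grm5 by young astrocytes. Ketamine blocks the NMDA class of ion-channel glutamate receptor and can raise glutamate release in frontal cortex. Antagonists of group II receptors share some of its antidepressant-like effects in rodents.

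The group II genes carried the clearest pattern in these arrays: Grm2 and Grm3 were lowest after sleep deprivation, with every sleep-deprived array below every saline and every ketamine array. None of the 6 genes differed between any pair of groups at an adjusted p under 0.05 (limma, Benjamini-Hochberg over all 22180 genes), and the same was true of all genes tested, of which 0% were called in each comparison. At an unadjusted p under 0.05 limma called 4.57% of all genes between ketamine and saline, 3.52% between sleep deprivation and saline and 9.48% between ketamine and sleep deprivation. Among the 6 receptor genes the counts at that threshold were 0, 1 and 1, both of them Grm2. With 3 arrays against 3, the exact two-sided permutation test cannot give a p below 0.10, and Grm2 and Grm3 reached that limit against sleep deprivation in both comparisons.

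The stretches of 250 bases just before the annotated starts of Grm2 and Grm3 are shown because these were the genes that lay lowest together after sleep deprivation. They come from RefSeq promoter windows of GRCm38.p6 and are written 5′ to 3′ on the strand of the gene, at chr9:106656110-106656359 on the minus strand for Grm2 and chr5:9725353-9725602 on the minus strand for Grm3. Capitals mark GC boxes (GGGCGG or its reverse complement CCGCCC).
Grm2: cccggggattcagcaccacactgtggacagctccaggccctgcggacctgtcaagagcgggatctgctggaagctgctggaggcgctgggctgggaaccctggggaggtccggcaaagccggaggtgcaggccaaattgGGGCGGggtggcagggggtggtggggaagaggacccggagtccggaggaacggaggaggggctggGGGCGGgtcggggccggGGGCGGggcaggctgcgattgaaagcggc
Grm3: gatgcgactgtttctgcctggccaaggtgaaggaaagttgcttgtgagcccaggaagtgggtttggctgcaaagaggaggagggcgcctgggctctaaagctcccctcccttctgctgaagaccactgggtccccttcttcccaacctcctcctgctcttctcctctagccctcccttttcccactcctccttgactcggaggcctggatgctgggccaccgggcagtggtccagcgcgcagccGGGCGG
Both windows are rich in G and C, at 71.2% for Grm2 and 62.4% for Grm3, against a median of 52.4% over 32851 promoter windows of the same length. The Grm2 window holds 3 GC boxes and the Grm3 window 1, and 32.7% of all windows hold at least 1. Neither window holds the letters of an E-box (CACGTG, in 6.02% of all windows), a CRE core (TGACG or CGTCA, 17.8%), an AP-1 site (TGANTCA, 6.75%) or an EGR site (GCGGGGGCG or its reverse complement, 2.57%). Both strands were searched, and an EGR site can share letters with a GC box. Windows were also listed for 2 starts of Grm7 and 3 of Grm8, and none for Grm4 and Grm5. The Grm7 windows had 62% and 65.2% G and C and 1 GC box each. Those of Grm8 had 68.4%, 54.4% and 43.6%, with 1, 0 and 0 GC boxes. A GC-rich window with a GC box was thus not particular to Grm2 and Grm3.

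**Figure D1:**
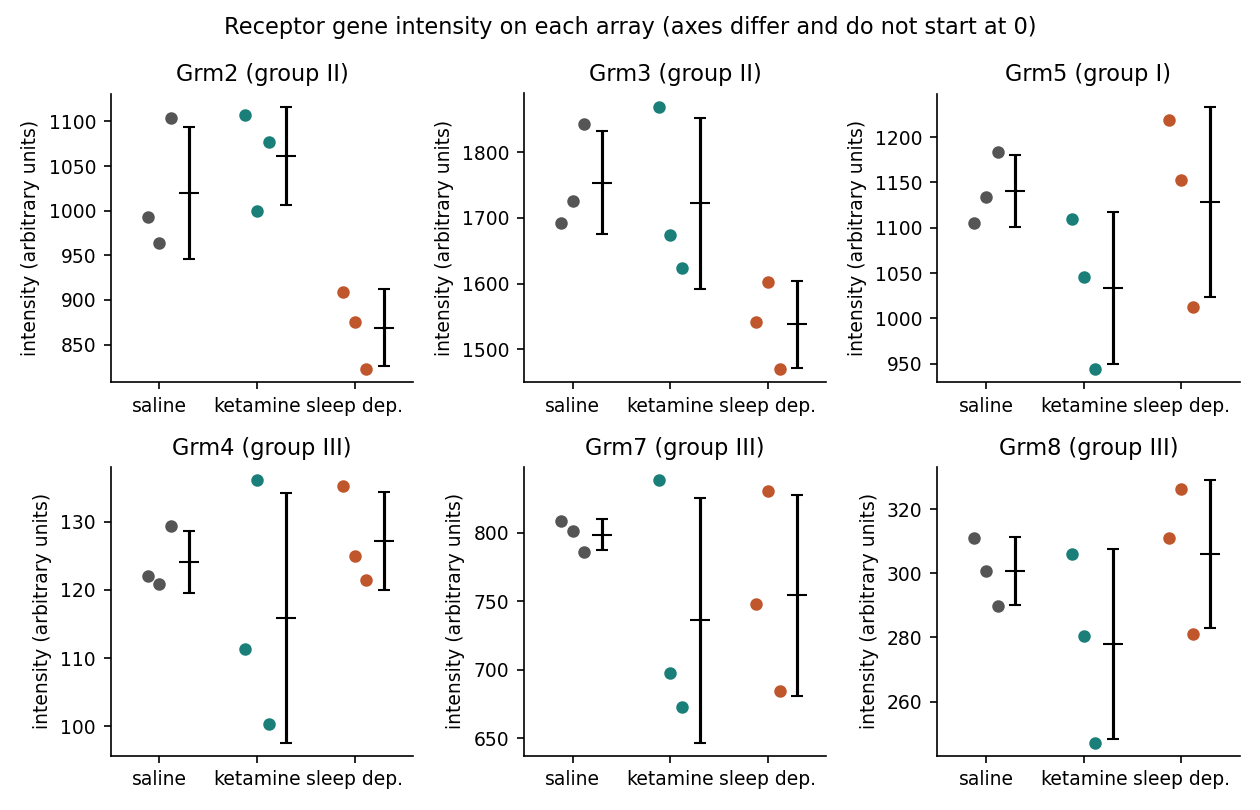
Intensity of each receptor gene on the 9 arrays (points) with the mean and SD of each group of 3 beside them. The y axes differ between genes and do not start at 0. The 3 sleep-deprived points lie below all others for Grm2 and Grm3, while the groups overlap for the other genes.

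Grm2 encodes a presynaptic autoreceptor that lies mostly outside the active zone and responds when glutamate spills over. Its intensity was 992.5, 963.4 and 1104 on the saline arrays, 1107, 999.8 and 1077 on the ketamine arrays and 908.3, 875.3 and 822.5 on the sleep-deprived arrays. The ketamine and saline groups overlapped, and the highest sleep-deprived array lay below the lowest array of either other group. The group means were 1020 ± 74.0 (SD, n = 3) after saline, 1061 ± 55.4 after ketamine and 868.7 ± 43.3 after sleep deprivation, in the order ketamine, saline, sleep deprivation, with the first neighbours not separated beyond their spread.

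On the scale of log2(intensity + 16), Grm2 stood at -0.23 ± 0.09 (SE, n = 3 per group) in sleep deprivation against saline, a mean intensity 0.852 times that of saline (limma, adjusted p = 1). The 95% interval of this difference ran from -0.43 to -0.03. Against sleep deprivation, ketamine stood at 0.28 ± 0.09, or 1.22 times (limma, adjusted p = 0.425), with an interval of 0.08 to 0.48. This was the 465th smallest unadjusted p of the 22180 genes. Between ketamine and saline the difference was 0.06 ± 0.09 with an interval of -0.14 to 0.26, that is from 0.906 to 1.20 times the saline level. The unadjusted limma p of sleep deprivation against saline was no longer under 0.05 without saline array 3, at a difference of -0.17 ± 0.11, or without sleep-deprived array 3, at -0.19 ± 0.10.

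Grm3, the other group II receptor, is found on terminals, on dendrites and on astrocytes, and is the receptor for the peptide transmitter NAAG. Its arrays read 1692, 1726 and 1842 after saline, 1869, 1674 and 1623 after ketamine and 1541, 1603 and 1470 after sleep deprivation. As for Grm2, the sleep-deprived arrays were the lowest, here with a narrow gap to ketamine array 3. The means were 1754 ± 78.8, 1722 ± 130 and 1538 ± 66.1 (SD, n = 3), in the order saline, ketamine, sleep deprivation, of which the first neighbours overlapped.

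Sleep deprivation stood at -0.19 ± 0.09 against saline for Grm3, or 0.877 times the saline mean (limma, adjusted p = 1), with an interval of -0.39 to 0.01. Ketamine stood at 0.16 ± 0.09 above sleep deprivation (limma, adjusted p = 0.577) and at -0.03 ± 0.09 against saline (adjusted p = 0.958). Of the 6 receptor genes 2 were thus lower after sleep deprivation than after saline with no overlap between the groups, against 3.54% of all genes, and 2 were higher after ketamine than after sleep deprivation with no overlap, against 4.53%. These were Grm2 and Grm3 in both cases, and both comparisons use the same sleep-deprived arrays. Across the 9 arrays the log2 values of the pair correlated at r = 0.85, and at 0.65 once each group's mean was removed, a description of genes that share the same arrays. The value of 0.65 was not particular to this pair. With group means removed, Grm3 correlated at 0.79 with Grm5, 0.83 with Grm7 and 0.68 with Grm8, and Grm7 with Grm8 at 0.90.

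**Figure D2:**
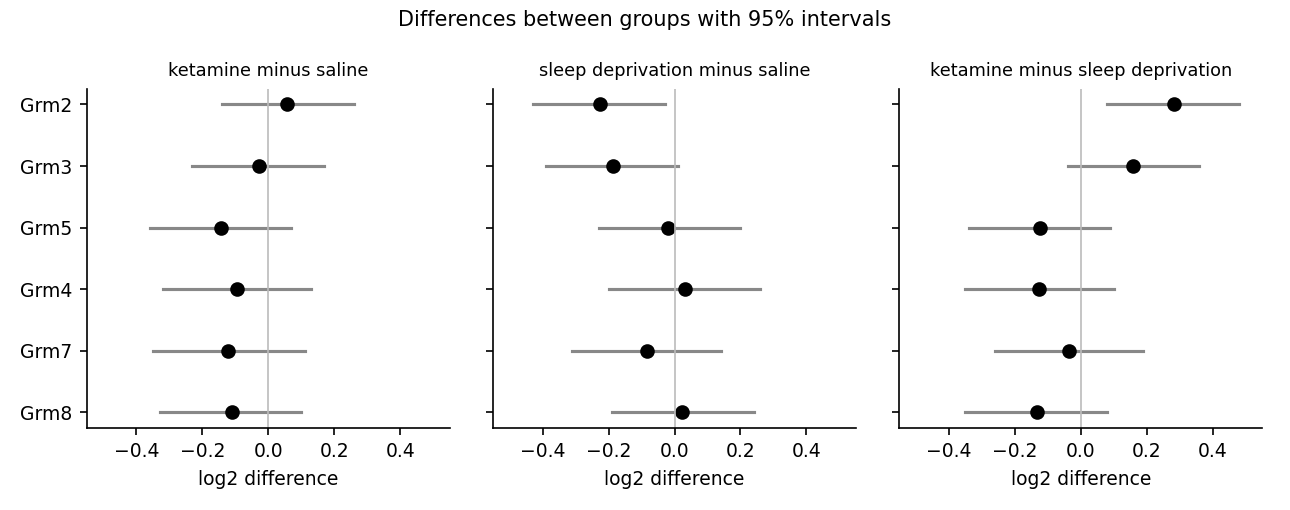
Differences between groups for each receptor gene on the scale of log2(intensity + 16) (x axis), with points for the limma estimate and lines for its 95% interval, n = 3 arrays per group. The interval excludes 0 for Grm2 in both comparisons with sleep deprivation, before any adjustment for the number of genes, and includes 0 for each of the other 16 differences.

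Grm5, the group I receptor, drives calcium release and a form of long-term depression, and its protein binds Homer. It read 1105, 1134 and 1183 after saline, 1110, 1046 and 944.2 after ketamine and 1219, 1153 and 1013 after sleep deprivation. The sleep-deprived arrays spanned the whole saline range, and only ketamine array 1 reached into it. The means were 1141 ± 39.5, 1034 ± 83.9 and 1128 ± 105 (SD, n = 3), in the order saline, sleep deprivation, ketamine, with each pair of neighbours overlapping. Ketamine stood at -0.14 ± 0.10 against saline (limma, adjusted p = 0.870), with an interval of -0.36 to 0.07 that holds a ratio as low as 0.780. Sleep deprivation stood at -0.02 ± 0.10 against saline (adjusted p = 1) and ketamine at -0.12 ± 0.10 against sleep deprivation (adjusted p = 0.663).

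The group III genes overlapped between the groups in each comparison. Grm7, whose receptor has low affinity for glutamate and sits in the active zone, read 808.7, 801.1 and 786.0 after saline, 838.4, 697.5 and 672.8 after ketamine and 747.8, 830.6 and 684.5 after sleep deprivation. The saline arrays were close together, at a coefficient of variation of 1.45%, and both treated groups spread around and below them, at 12.1% for ketamine and 9.71% for sleep deprivation. Grm7 stood at -0.12 ± 0.11 in ketamine against saline (adjusted p = 0.871), at -0.08 ± 0.11 in sleep deprivation against saline (adjusted p = 1) and at -0.04 ± 0.11 in ketamine against sleep deprivation (adjusted p = 0.911).

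A dimmer Grm7 probe set gave 241.1, 264.4 and 270.6 after saline, 289.0, 282.5 and 223.4 after ketamine and 277.0, 271.7 and 199.3 after sleep deprivation. Unlike the brighter probe set it had its mean after ketamine on the upper side of saline, at 0.03 ± 0.13, and it lay at -0.06 ± 0.13 after sleep deprivation (adjusted p = 0.972 and 1 by limma over 23521 probe sets). The probe sets of Grm7 therefore gave no common sign between ketamine and saline.

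Grm8 encodes a presynaptic receptor of high glutamate affinity. It read 311.1, 300.8 and 289.9 after saline, 306.1, 280.6 and 247.3 after ketamine and 311.0, 326.1 and 281.0 after sleep deprivation. Sleep deprivation had the highest mean and ketamine the lowest, with all neighbours overlapping. The difference of ketamine from saline was -0.11 ± 0.10 (adjusted p = 0.872), that of sleep deprivation from saline 0.02 ± 0.10 (adjusted p = 1) and that of ketamine from sleep deprivation -0.13 ± 0.10 (adjusted p = 0.641).

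Grm4, best known from the cerebellum, was the dimmest member and read 122.1, 120.9 and 129.3 after saline, 111.4, 136.1 and 100.3 after ketamine and 135.3, 124.9 and 121.5 after sleep deprivation. The ketamine arrays held both the lowest and the highest value of all 9. The array files give no detection call, and odorant and vomeronasal receptor genes, which cortex hardly transcribes, served to show how bright a probe set can read without its transcript. Over 1394 such genes the median of the mean intensities was 29.3 and the 95th percentile 115, and 95.6% of them lay below Grm4, against 99.9% below each of the other 5 receptor genes. Grm4 stood at -0.10 ± 0.11 in ketamine against saline (adjusted p = 0.883), at 0.03 ± 0.11 in sleep deprivation against saline and at -0.13 ± 0.11 in ketamine against sleep deprivation (adjusted p = 0.672), and a probe set this near the background range can understate a change.

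Ketamine against saline thus gave 5 of 6 receptor genes with a lower mean, where 54.6% of all genes had one, and a median difference of -0.10 beside -0.015 for all genes. The median of all genes is not matched to the receptor genes in brightness. The 75th percentile over all genes was 303.7 and 283.1 on ketamine arrays 2 and 3, against 318.9 or more on the saline arrays. After quantile normalization, described below, ketamine minus saline was 0.109 for Grm2, 0.009 for Grm3 and -0.12 for Grm4. It was -0.087 for Grm5, -0.06 for Grm7 and -0.044 for Grm8. Sleep deprivation against saline gave 4 of 6 lower, where 53.4% of all genes were, with a median of -0.05 beside -0.0088. None of the 6 genes had ketamine and saline arrays that did not overlap, where 14.4% of all genes did. The comparisons with saline share the saline arrays and are not independent of each other.

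**Figure D3:**
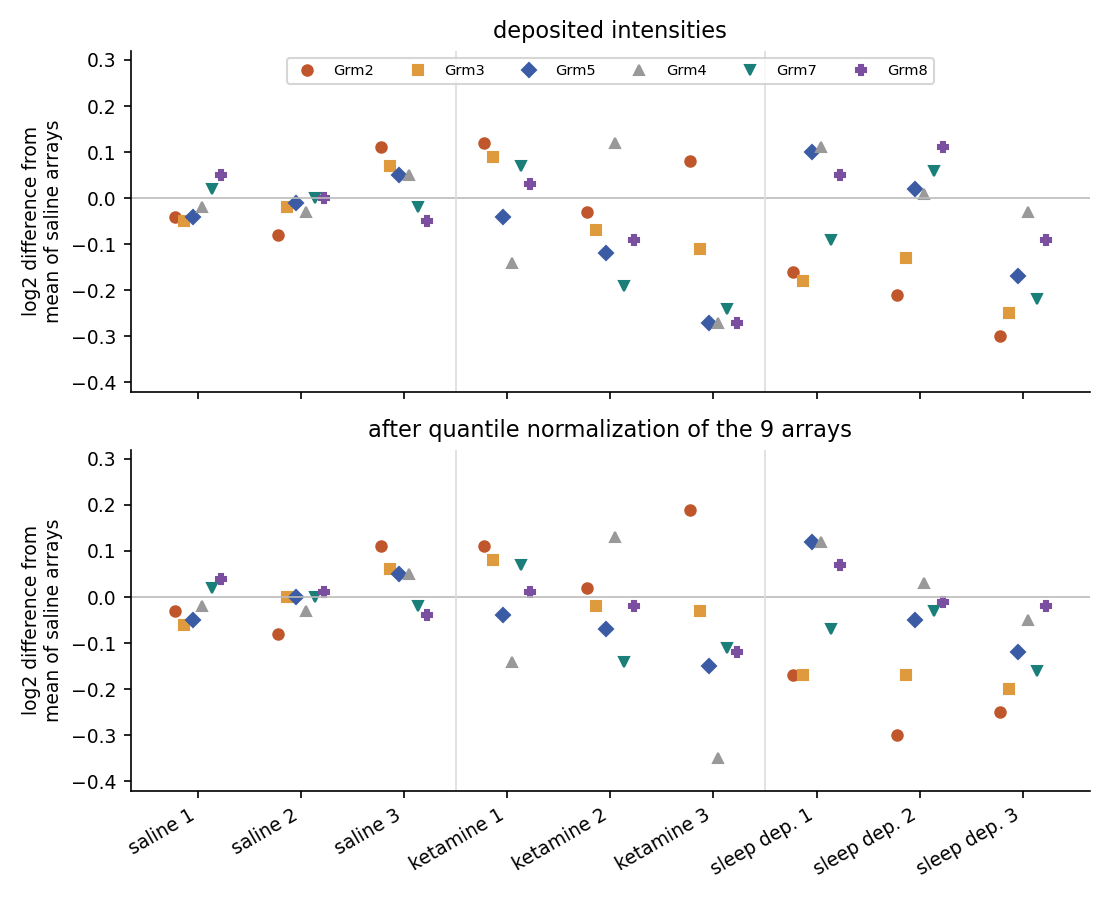
Difference of each receptor gene from the mean of the 3 saline arrays, by array, on the scale of log2(intensity + 16). The top panel shows the deposited intensities and the bottom panel the same after quantile normalization. In the top panel Grm3, Grm4, Grm5, Grm7 and Grm8 lie between -0.27 and -0.11 on ketamine array 3, while Grm2 lies at 0.08.

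Several members were low together on 3 of the treated arrays. On ketamine array 3 Grm5, Grm7 and Grm8 stood at -0.27, -0.24 and -0.27 from the saline mean, on ketamine array 2 at -0.12, -0.19 and -0.09, and on sleep-deprived array 3 at -0.17, -0.22 and -0.09. These arrays also differed in their whole distribution: the 75th percentile over all genes was 283.1 on ketamine array 3, 303.7 on ketamine array 2 and 303.8 on sleep-deprived array 3, against 318.9 to 321.3 on the saline arrays, 321.5 on ketamine array 1, 312.2 on sleep-deprived array 1 and 349.7 on sleep-deprived array 2. After quantile normalization, which gives all arrays the same distribution, the values of Grm5, Grm7 and Grm8 on ketamine array 3 were -0.15, -0.11 and -0.12. The correlation of Grm7 with Grm8 across the 9 arrays was 0.83 before and 0.39 after it, and that of Grm2 with Grm3 was 0.85 before and 0.84 after it.

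The differences of the group II genes were of similar size after this normalization. Grm2 stood at -0.24 ± 0.08 and Grm3 at -0.18 ± 0.07 in sleep deprivation against saline (limma, adjusted p = 0.849 and 0.923). Ketamine against sleep deprivation gave 0.35 ± 0.08 for Grm2 and 0.19 ± 0.07 for Grm3 (adjusted p = 0.316 and 0.427), and neither gene's sleep-deprived arrays overlapped another group. Grm7 then also had its sleep-deprived arrays all below the saline arrays, at 748.8, 770.4 and 705.2 against 800.3, 789.9 and 774.4.

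**Figure D4:**
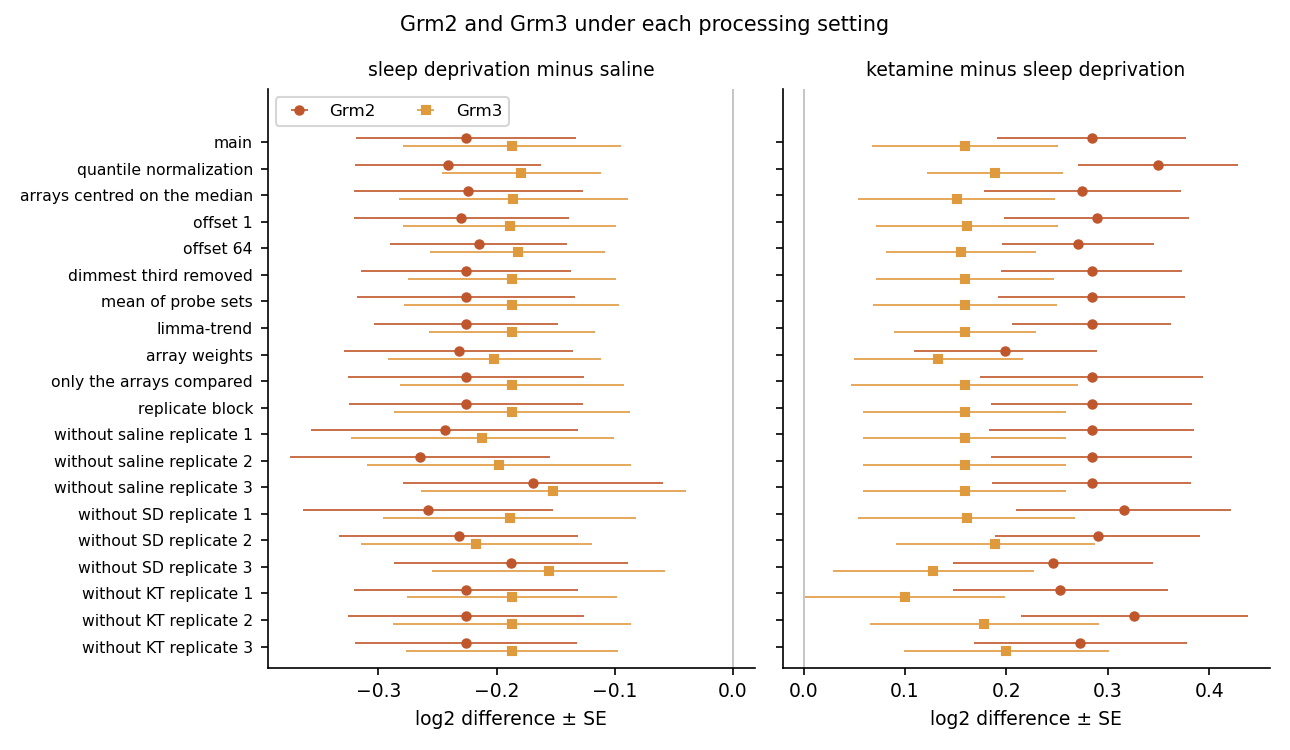
Differences of Grm2 (circles) and Grm3 (squares) ± SE in both comparisons with sleep deprivation (x axis, log2 scale) under the main setting and each of 19 alternatives (y axis). Grm2 runs from -0.27 to -0.17 against saline and from 0.20 to 0.35 in ketamine against sleep deprivation, and neither gene changes sign. The sleep-deprived arrays do not overlap the other groups, so only quantile normalization and centring of the arrays could have changed it.

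Cell type markers were read on the same arrays, since fewer cells of a type and less RNA per cell cannot be told apart in bulk tissue. Excitatory neuron markers, 7 of 8 measured, summed to 11985 to 12587 on the saline arrays, 11803 to 12299 after ketamine and 12082 to 12761 after sleep deprivation, with none at 0, and their median difference between sleep deprivation and saline was 0.017. For 9 astrocyte markers it was -0.034, with sums of 4816 to 5179, 4569 to 5074 and 4749 to 5268 in the same order of groups. For 9 oligodendrocyte markers it was -0.20, with all 9 lower after sleep deprivation, where 53.4% of all genes were lower. The sums of this list were 4422 to 5456, 3836 to 6801 and 3844 to 4911. In ketamine against sleep deprivation 8 of these markers were higher and 1 lower, with a median of 0.26 beside -0.012 over all genes. The share of all genes higher there was not counted. The medians of this list thus lay on the side of Grm2 and Grm3 in both comparisons, with 0 markers at unadjusted p under 0.05 in limma. By array, oligodendrocyte markers stood at a median of -0.43, -0.04 and 0.02 from saline in sleep-deprived arrays 1 to 3, where Grm2 stood at -0.16, -0.21 and -0.30 and Grm3 at -0.18, -0.13 and -0.25. The part of these markers in the group II values was not tested.

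All 8 endothelial markers had a higher mean after sleep deprivation than after saline, with a median of 0.13, and a lower mean after ketamine than after sleep deprivation, with a median of -0.27, the opposite side to Grm2 and Grm3 in each case. At unadjusted p under 0.05 limma gave 1 higher in the first comparison and 6 lower in the second, and 0 passed the adjustment. Over all genes that threshold called 3.52% and 9.48% in these comparisons, and the median differences were -0.0088 and -0.012. The share of all genes lower in ketamine against sleep deprivation was not counted. Vwf, which encodes the clotting protein of vessel walls, stood at 0.41 ± 0.12 (adjusted p = 1) and -0.50 ± 0.12 (adjusted p = 0.335). The sums of the list ran from 2067 to 2274 on the saline arrays, 1875 to 2266 after ketamine and 2308 to 2494 after sleep deprivation, and their part in the receptor values was not tested.

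Of 12 cortical layer markers 7 were lower after sleep deprivation, with a median of -0.081. At unadjusted p under 0.05 in limma they included Etv1 (layer 5) at -0.31 ± 0.09, Rorb (layer 4) at -0.34 ± 0.13 and Calb1 (a calcium buffer of upper-layer and inhibitory cells) at -0.30 ± 0.11 on the lower side, and Tle4 (layer 6) at 0.27 ± 0.12 on the higher side, with an adjusted p of 1 for each. Their part in the group II values was not tested. All 7 choroid plexus markers measured were lower after sleep deprivation than after saline (median -0.18), where 53.4% of all genes were. All 7 were higher after ketamine than after sleep deprivation (median 0.18), the side of Grm2 and Grm3 in both comparisons. The share of all genes higher after ketamine than after sleep deprivation was not counted, and their median difference was -0.012. At unadjusted p under 0.05 limma gave 2 lower and then 1 higher, beside 3.52% and 9.48% of all genes, and 0 passed the adjustment. The summed intensity was 644 to 9511 on the saline arrays, highest on saline array 2, and 537 to 1039 on the treated arrays. Without saline array 2, Grm2 stood at -0.27 ± 0.11 and Grm3 at -0.20 ± 0.11 in sleep deprivation against saline. That setting keeps saline array 1, where the marker Ttr read 1624, against 89.46 to 466.9 on the treated arrays. Aqp1, the marker called higher, read 70.19 to 96.21, below 115, the 95th percentile of the odorant and vomeronasal receptor genes. Clic6 at 45.38 to 79.07 and Otx2 at 54.93 to 89.14 did too. All 6 measured markers of cerebellum and olfactory bulb, outside the dissection, were also lower after sleep deprivation than after saline (median -0.07). In ketamine against sleep deprivation 4 of them were higher and 2 lower (median 0.15). The part of choroid plexus markers in the group II values was not tested.

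Signalling and partner genes were read from lists of named genes, of which 81 of 93 were measured. The lists also hold genes that are not particular to these receptors, such as Cnih2 and Caln1. None of the 81 passed at adjusted p under 0.05 in any comparison. At unadjusted p under 0.05 limma gave 3 lower and 0 higher in ketamine against saline, 1 lower and 2 higher in sleep deprivation against saline, and 4 lower and 0 higher in ketamine against sleep deprivation, beside 4.57%, 3.52% and 9.48% of all genes. The medians of the 81 genes were -0.041, 0.0051 and -0.066 in the same order, beside -0.015, -0.0088 and -0.012 over all genes.

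Among the genes that act after Gi/o-coupled receptors, 19 were measured. The potassium channel subunit gene Kcnj3, whose channels are opened by the G protein subunits these receptors release, read 1351, 1445 and 1399 after saline, 1412, 1391 and 1226 after ketamine and 1239, 1205 and 1198 after sleep deprivation. Like Grm2 and Grm3, it had its sleep-deprived arrays below the saline arrays, at -0.20 ± 0.09 (limma, adjusted p = 1), and ketamine array 3 lay within the sleep-deprived range. Its partner subunit Kcnj6 read 908.5, 922.6 and 765.3 after sleep deprivation and 751.5, 761.4 and 679.4 after ketamine, a difference of -0.24 ± 0.10 in ketamine against sleep deprivation (limma, adjusted p = 0.518). The saline arrays of Kcnj6, at 711.4, 828.4 and 818.7, overlapped both. Of 13 genes of the Gq and calcium arm that serves Grm5, 0 had an unadjusted p under 0.05 in limma in any comparison.

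Among 16 scaffold and partner genes, Homer1, whose long forms bind the tail of Grm5 and whose short form is induced by activity and displaces them, had the largest differences in both comparisons of ketamine. It read 1232, 1400 and 1140 after saline, 1095, 918.9 and 899.6 after ketamine and 1453, 1550 and 1363 after sleep deprivation. The ketamine arrays were all under the lowest saline array, and the sleep-deprived arrays overlapped saline with saline array 2 inside their range. The probe set is not assigned here to the long or the short form. Ketamine stood at -0.37 ± 0.11 against saline (adjusted p = 0.870) and at -0.58 ± 0.11 against sleep deprivation (limma, adjusted p = 0.241), beside -0.12 ± 0.10 for Grm5 in the same comparison.

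Siah1a, a ubiquitin ligase that binds group I receptors, read 419.0, 402.8 and 372.8 after saline and 366.8, 347.5 and 277.5 after ketamine, at -0.26 ± 0.11 (limma, adjusted p = 0.870). Caln1, a calcium-binding protein gene of neurons, read 569.8, 545.5 and 549.7 after saline and 650.9, 679.3 and 619.8 after sleep deprivation, at 0.22 ± 0.09 (adjusted p = 1). Cnih2, an auxiliary subunit gene of AMPA receptors, stood at 0.23 ± 0.09 in the same comparison (adjusted p = 1). The sleep-deprived arrays lay above all saline arrays for both Caln1 and Cnih2, and the share of all genes that did so was not counted. These were the 2 genes called higher after sleep deprivation among the 81 listed, and neither is particular to metabotropic receptors.

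Receptor desensitisation is carried out by kinases, arrestins and RGS proteins, which shorten G protein signals. All 12 measured genes of this list had a lower mean after ketamine than after sleep deprivation, with a median of -0.094 beside -0.012 over all genes. The share of all genes lower in this comparison was not counted. At unadjusted p under 0.05, where limma called 9.48% of all genes, the list held 1 gene. This was Rgs17, an RGS protein for Gi/o subunits, which read 504.9, 565.7 and 563.0 after sleep deprivation and 461.7, 411.5 and 387.4 after ketamine, at -0.36 ± 0.10 (limma, adjusted p = 0.375). The summed intensity of the list ran from 7575 to 8522 on the ketamine arrays and from 8194 to 9117 on the sleep-deprived arrays, which overlap. Against saline, 10 of the 12 genes had a lower mean after ketamine, with a median of -0.12, where 54.6% of all genes were lower. For 4 of them the groups did not overlap, as for 14.4% of all genes in either direction. By array the list median stood at -0.07, -0.10 and -0.18 from saline on ketamine arrays 1 to 3. Arrays 2 and 3 had the low 75th percentiles given above.

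In the list of long-term depression and local translation genes, 9 were measured, and Arc, whose protein removes AMPA receptors from synapses, stood at -0.32 ± 0.12 in ketamine against saline (limma, adjusted p = 0.870). Arc read 1722, 1896 and 1614 after saline and 1294, 1359 and 1516 after ketamine, with no overlap. After sleep deprivation it read 1473, 1961 and 1941, which overlaps ketamine, at -0.35 ± 0.12 in ketamine against sleep deprivation (adjusted p = 0.447). Of the 12 genes that supply or clear glutamate and NAAG, 0 had an unadjusted p under 0.05 in limma in any comparison, and the list median was -0.046 in sleep deprivation against saline.

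**Figure D5:**
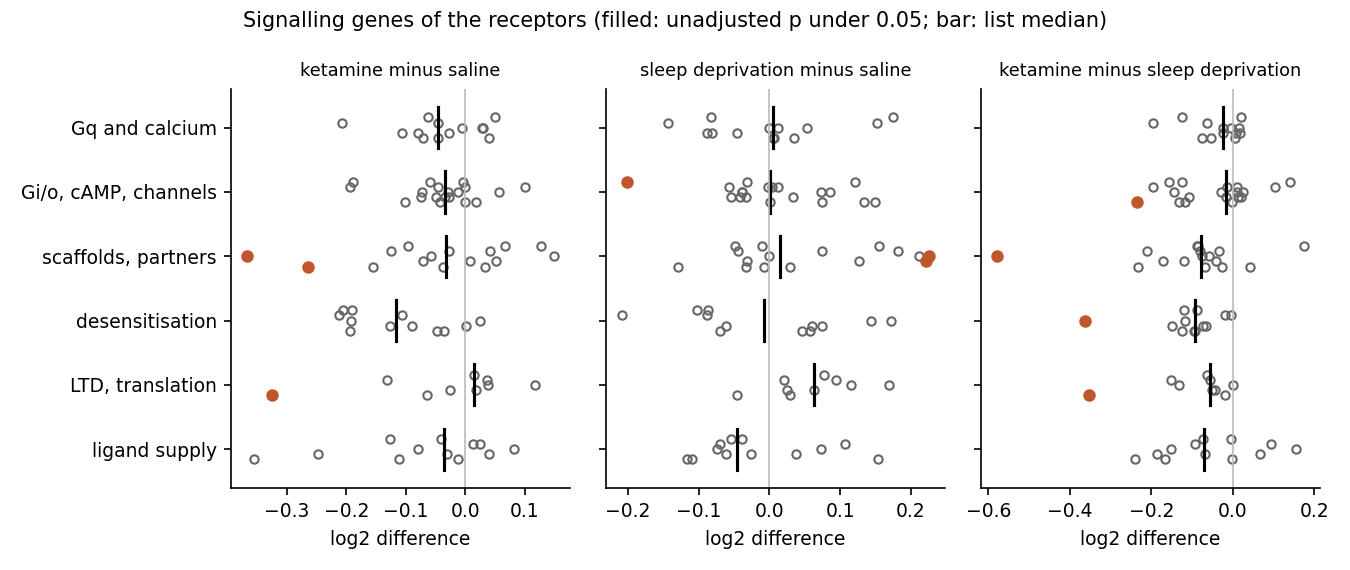
Differences between groups (x axis, log2 scale) for the signalling genes of the receptors, 1 point per gene and 1 row per list, with bars for the list medians. Filled points have an unadjusted limma p under 0.05, and none had an adjusted p under 0.05. The leftmost filled point in ketamine against sleep deprivation is Homer1 at -0.58.

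The genes whose log2 values followed each receptor most closely over the 9 arrays were sought among genes brighter than the median gene, about 11089 per receptor. With so many genes and 9 arrays high values are found by choice alone, so these are descriptions. Grm2 was closest to Prdm16 (r = 0.963) and H2ac10 (0.901), and Grm3 to Gm12371 (0.977) and Gda (0.951). Gda, a guanine deaminase gene of cortical neurons, stood at -0.21 ± 0.09 in sleep deprivation against saline, beside -0.19 ± 0.09 for Grm3. Grm5 was closest to Zxdc and Tgfb2 (both 0.971), Grm7 to Lrrc40 (0.987) and Chid1 (0.967), Grm8 to Gzf1 (0.982) and Flii (0.980), and Grm4 to Mcam (0.972) and Scrt1 (0.921).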

How the data were processed

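The deposited table holds linear probe set intensities for 9 arrays that the authors made with Affymetrix Expression Console 1.1.1 and PLIER 2.0, per the submitters' processing notes. How background was corrected and arrays were normalized is not given in the sources used here. Medians of the arrays ran from 97.7 to 106.2. The number of arrays limits the precision.

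Of 41345 probe sets, 23521 had 1 gene symbol in the platform annotation, 1814 several and 16010 none; 23328 matched RefSeq by gene identifier. The brightest probe set per gene was kept. Values were analysed as log2(intensity + 16), which understates changes of dim genes, with limma 3.58.1 in R 4.3.3 (lmFit, eBayes, all 9 arrays in 1 fit) and Benjamini-Hochberg adjustment over 22180 genes. The fit was checked on simulated data. No pair of arrays was identical (0 pairs). Nothing was done with scan dates.

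Members and lists were chosen with earlier results of these data known. All members were named; signalling genes were named at unadjusted p under 0.05 and cell type markers only beside the receptor values, and for each member the 2 most correlated genes. The limma p-values weigh a difference of means against the spread between these samples, estimated over all groups and drawn towards that of other genes. The 19 alternatives covered normalization, offsets of 1 and 64, filters, probe sets, variance models, a replicate block and each array left out. No protein sequence was used here.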

Additional observations from a re-analysis of the deposited data

Results flagged for a closer look

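Grm2 differed between the treatments at an unadjusted level. Ketamine minus sleep deprivation was 0.284 on the log2 scale (limma, adjusted p = 0.425 over all genes), and each of the 3 ketamine arrays lay above each of the 3 sleep-deprived arrays. The unadjusted limma p was under 0.05 in all 19 alternatives, where the smallest adjusted p was 0.183, so the difference did not pass the adjustment in any of them.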

How the results depend on the processing

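None of the 18 receptor differences passed an adjusted p of 0.05 under any of the 19 alternatives. Grm2 and Grm3 kept their sign in both comparisons with sleep deprivation in all 19, as did Grm5, Grm7 and Grm8 in ketamine against saline, Grm7 in sleep deprivation against saline, and Grm5 and Grm8 in ketamine against sleep deprivation. The others changed sign in some, and the cause was not tested. Limma-trend, the replicate block and the removal of dim genes leave a difference as it is, so they could not reverse a sign. For Grm2 and Grm3, whose sleep-deprived arrays did not overlap the others, leaving out a single array, another offset or array weights could not either. Quantile normalization and centring of the arrays could have reversed these signs, and did not. With array weights, the highest being 7.9 for ketamine array 2, Grm2 and Grm4 stood at -0.034 and 0.07 in ketamine against saline, Grm5 at 0.003 in sleep deprivation against saline and Grm4 at 0.025 in ketamine against sleep deprivation. Quantile normalization gave 0.009 for Grm3 in ketamine against saline and 0.027 for Grm7 in ketamine against sleep deprivation, and the mean of probe sets 0.026 for the latter. With each array left out in turn, Grm3 ran from -0.088 to 0.013 in ketamine against saline. In sleep deprivation against saline Grm4 ran from -0.009 to 0.060, Grm5 from -0.076 to 0.055 and Grm8 from -0.022 to 0.080, and Grm7 ran from -0.132 to 0.034 in ketamine against sleep deprivation.

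Counts of genes at adjusted p under 0.05, 0 in each comparison in limma, became 1439 with array weights in ketamine against saline; 1 with centred arrays and 3 with limma-trend in sleep deprivation against saline; and 14 with an offset of 64, 5 without the dimmest 33.3% of genes, 15 with limma-trend and 42 with array weights in ketamine against sleep deprivation. With each array left out they ran from 0 to 0, 0 to 4 (without sleep-deprived array 2) and 0 to 214 (without sleep-deprived array 3). At unadjusted p under 0.05 the counts were 1013, 781 and 2103. Arrays of the same number mostly did not deviate together, with a correlation over 0.1 in 2 of 9 pairs. The highest was 0.444, between sleep-deprived array 3 and ketamine array 3. Sleep-deprived array 2 and ketamine array 1, of different numbers, reached 0.536. A replicate block called 0 genes in each comparison. Each group holds each number once, so the block could not move Grm2 from -0.226 in sleep deprivation against saline. Its SE went from 0.093 to 0.099. Signal over background limits Grm4, the member nearest the background range.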
